A study of Mus musculus with 6 samples.

Results

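Follicular helper T cells were sought among CD4+ T cells of the spleen and of vascular tissue of mice whose abdominal aorta had been treated with elastase to form an aneurysm. A cell was taken as a member when it held at least 300 genes and at most 10% mitochondrial counts, at least 1 molecule of Cd3e and of Cxcr5, no Foxp3, and at least 1 molecule of Il21, Tox2, Bcl6 or Pdcd1. Molecules are unique molecular identifiers (UMIs), the barcoded transcripts that droplet sequencing counts. The rule found 915 cells among 41303 that passed the filters on cells, 637 in spleen and 278 in vascular tissue, and they are called gate cells below. The members were thus chosen by the raw counts of these 7 genes, and their RNA levels in gate cells are not tested below. Shares of cells that hold them are compared between tissues, which the rule did not use.

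Both groups of libraries came from C57/B6 mice, 8 to 12 weeks old, that had received elastase (PPE in the labels) at the aorta and were killed on day 14. Each group had 3 libraries of sorted CD4+ T cells, so no untreated aorta or untreated spleen was compared here. The aorta was digested with enzymes for 1 h at 37 °C and the spleen was ground without digestion, so tissue of origin and digestion cannot be told apart. The labels do not say whether the libraries of a group were separate animals, and p-values therefore measure the spread between libraries, which may be technical.

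Follicular helper T cells are the CD4+ T cells that enter B cell follicles and help B cells to form germinal centres. The chemokine receptor CXCR5 leads them to the follicle, the repressor BCL6 holds their programme in place, and they help B cells through CD40 ligand, ICOS and the cytokines IL-21 and IL-4. Naive T cells instead use CCR7 and KLF2 targets such as S1PR1 to circulate through lymphoid organs, and a related helper population of inflamed tissue, peripheral helper T cells, makes IL-21 and carries PD-1 without CXCR5.

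The 6 libraries held 2312 to 9581 barcodes, with median depths of 4423 to 5724 UMIs. Cxcr5- T cells are the 33064 cells with Cd3e and without Foxp3 or Cxcr5, and gate cells were deeper than these in every library. Median depths ran from 5408 to 7744 UMIs in gate cells, against 4245 to 5721 in Cxcr5- T cells. In vascular library 2 the Cxcr5+ T cells without Il21, Tox2, Bcl6 and Pdcd1 had a median of 5458.5 UMIs, above the 5407.5 of gate cells. Libraries shared 0.766% to 1.69% of the smaller library's barcodes in pairs. Replicate libraries differed beyond sampling noise in every pair, with a chi-square per degree of freedom of 13.2 to 46.7 over genes. Gate cells of 1 library summed to 441845 to 2319563 UMIs.

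The gate genes lie on 6 chromosomes of mm10 (GENCODE M21 positions). Cxcr5 and Cd3e are both on chromosome 9, at 44511787 to 44561877 and 44998740 to 45009627. Il21 is on chromosome 3 (37222759 to 37232636), Tox2 on chromosome 2 (163203125 to 163324170), Bcl6 on chromosome 16 (23965052 to 23988852) and Pdcd1 on chromosome 1 (94038305 to 94052553). Foxp3 is on chromosome X (7573644 to 7595245). Counts are given per gene and not per position, and the kit reads the 5′ end of transcripts.

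Most gate cells entered through Pdcd1, Tox2 or both. Pdcd1, which encodes the inhibitory receptor PD-1, was the only one of the 4 genes in 235 cells. Tox2, a transcription factor that acts with BCL6, was alone in 203 cells, and both were found together in 230 cells. Il21 was alone in 19 cells and Bcl6 in 34. Of the 915 cells, 491 held 1 of the 4 genes, 306 held 2, 104 held 3 and 14 held all 4. The gate is thus mostly a set of Cxcr5+ cells with PD-1 or Tox2 transcripts, and cells with Il21 were the smaller share, at 105 of 637 in spleen and 59 of 278 in vascular tissue.

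A Cxcr5 molecule was rare in cells that should lack the gene. Among cells with at least 2 UMIs of Siglech and none of Cd3e, which marks plasmacytoid dendritic cells, 0% in spleen and 0.111% ± 0.192 in vascular libraries had a Cxcr5 UMI (SD, n = 3), although these cells were deeper, with library medians of 7291 to 8459 UMIs. Il21 was not seen in them. Pdcd1 was seen in 0% and 2.72% ± 0.977, and Tox2 in 2.15% ± 2.76 and 1.04% ± 0.489. Bcl6 was seen in 3.87% ± 1.46 and 4.86% ± 0.25 of them. The Bcl6 shares of the shallower Cxcr5- T cells were 1.60% and 4.24%, below those values, and no weight is placed on them. Whether the Bcl6 UMIs of the dendritic cells are free RNA or their own was not tested.

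Cells just inside and just outside the gate differed by degree. Cxcr5+ T cells with none of the 4 genes numbered 751, with 582 in spleen. To compare shares at equal depth, every cell was thinned to 2000 UMIs. In spleen a Cd200 UMI was then found in 10.2% of Cxcr5+ cells with none of the 4 genes, in 17.4% of cells with 1, in 19.6% with 2 and in 27.4% with 3 or 4. The Ccr7 share went the other way, from 40.5% to 25.8%, 14.2% and 9.52%. In vascular tissue the Cd200 shares were 4.73%, 9.55%, 13.8% and 20.6%, and the Ccr7 shares 39.6%, 29.3%, 17.2% and 26.5%, the last over 34 cells. These values are pooled over cells of 3 libraries and describe the threshold.

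The share of gate cells among T cells was lower in each vascular library than in any spleen library. In spleen libraries 1 to 3 they were 3.88%, 3.28% and 3.62% of Cd3e+ Foxp3- cells. In vascular libraries 1 to 3 they were 0.933%, 1.46% and 2.88%. Vascular library 3 lay nearest to the spleen and held 151 of the 278 vascular gate cells. The means were 3.59% ± 0.303 and 1.76% ± 1.00 (SD, n = 3 per tissue, exact permutation test, two-sided, p = 0.1, the smallest that 3 libraries against 3 can give, adjusted p = 0.3 over 12 shares). At 2000 UMIs per cell the shares were 1.22% and 0.469%.

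The gap was already present at the Cxcr5 step. Cxcr5+ cells were 7.05%, 6.19% and 7.10% of Cd3e+ Foxp3- cells in spleen and 1.85%, 2.63% and 3.92% in vascular tissue, with no overlap (exact permutation p = 0.1, adjusted p = 0.3). Among Cxcr5+ cells, the share that also held 1 of the 4 genes was 53.0% ± 2.03 in spleen and 59.7% ± 12.0 in vascular tissue, and libraries overlapped (exact permutation p = 0.6). Vascular library 3 stood at 73.3%, above the others, which lay from 50.4% to 55.6%. The Il21+ share of Cxcr5+ cells was 9.52% ± 2.43 and 11.5% ± 7.49 (exact permutation p = 0.8), and vascular library 3 was again the highest, at 19.9%. Bcl6+ cells were 5.51% ± 0.382 and 9.32% ± 2.52 of Cxcr5+ cells without overlap (exact permutation p = 0.1, adjusted p = 0.3), against 3.87% and 4.86% in the deeper Siglech+ cells.

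**Figure D1:**
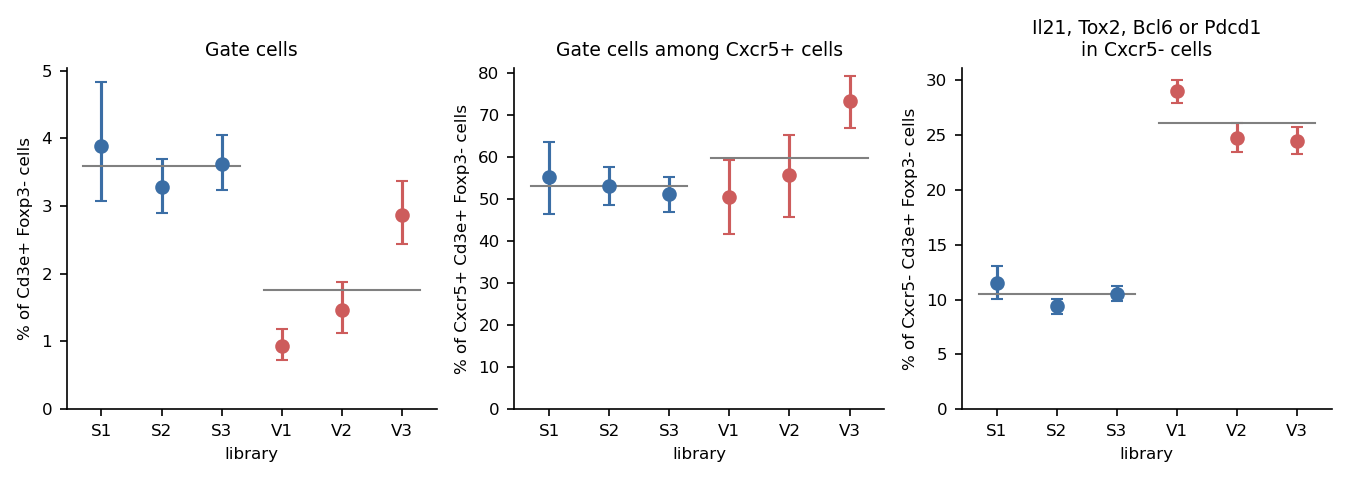
Shares per library, with 95% Clopper-Pearson intervals that cover counting error only. S1 to S3 are spleen libraries and V1 to V3 vascular libraries, and grey lines are means of 3. Left, gate cells as a percentage of Cd3e+ Foxp3- cells, where every vascular library lies below every spleen library; middle, gate cells among Cxcr5+ cells, where tissues overlap; right, cells with Il21, Tox2, Bcl6 or Pdcd1 among Cxcr5- T cells, where vascular libraries lie between 24.5% and 29.0% and spleen libraries between 9.37% and 11.5%.

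Outside the gate, each vascular library had a larger share of cells with 1 of the same 4 genes but no Cxcr5. Of Cxcr5- T cells, 10.5% ± 1.06 in spleen and 26.1% ± 2.52 in vascular tissue held at least 1 of the 4 (exact permutation p = 0.1, adjusted p = 0.3). Pdcd1 accounted for most of it, with a UMI in 6.40% ± 0.809 and 21.7% ± 3.15 of Cxcr5- T cells. Among all Pdcd1+ T cells, Cxcr5 was found in 29.8% ± 0.757 in spleen and 5.18% ± 3.52 in vascular tissue. Among Il21+ T cells it was found in 47.0% ± 3.69 and 23.2% ± 7.95. Libraries of the tissues did not overlap for any of these 3 shares, which were computed after the planned ones and are given without a test.

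Against Cxcr5- T cells of the same libraries, gate cells carried more RNA of the follicular helper programme and less of the genes that oppose it. The test summed UMIs per library and class and compared the classes within libraries with edgeR, and levels are CPM, counts per 1000000 of those sums scaled by edgeR's TMM factors. Of 10212 genes tested, 1282 were higher in gate cells (12.6%) and 1290 lower (12.6%), with an adjusted p under 0.05. Of 34 genes of a follicular helper list without the gate genes, 31 passed the filter on low counts, 23 were higher and 3 lower, with a median log2 difference of 1.13 against -0.02 over all genes. Of the 26 called genes, 25 kept their call in each of 6 fits that left out 1 library. Nt5e, which encodes the ectoenzyme CD73, lost it without spleen library 3 (adjusted p = 0.0775).

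Cd200, a surface glycoprotein and a marker named for these cells that the rule did not use, was at 166, 83.4 and 100 CPM in gate cells of spleen libraries 1 to 3 and at 62.5, 81.1 and 101 CPM in vascular ones. In Cxcr5- T cells it was at 53.9, 35.9 and 33.9 CPM in spleen and 19.5, 22.2 and 32.3 CPM in vascular tissue. Gate cells were above Cxcr5- T cells in 6 of 6 libraries, by a log2 difference of 1.63 ± 0.09 (SE, edgeR adjusted p = 4.02e-07). Cd200 was not particular to gate cells. The deeper Siglech+ Cd3e- cells held a Cd200 UMI in 47.3% ± 19.5 in spleen and 48.9% ± 7.74 in vascular tissue. For gate cells these shares were 43.7% and 37.9%. Sh2d1a encodes SAP, the adaptor through which SLAM receptors hold T cells to B cells, and was higher in all 6 libraries by 1.49 ± 0.07 on the log2 scale (adjusted p = 1.65e-07).

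The secreted factors of the list gave some of the widest differences. Sostdc1, a secreted antagonist of WNT and BMP signals, was at 119, 37.3 and 91.6 CPM in spleen gate cells and at 55.1, 24.1 and 61.7 CPM in vascular ones. Cxcr5- T cells held 1.51 to 7.48 CPM, so that no library of either tissue overlapped. The log2 difference was 3.71 ± 0.21 (adjusted p = 4.02e-07). Few cells carried it: 44 of 637 gate cells in spleen and 17 of 278 in vascular tissue had a Sostdc1 UMI, with up to 59 UMIs in 1 cell. Angptl2, a secreted glycoprotein of the angiopoietin-like family, was at 22.3 to 72.5 CPM in gate cells and 4.33 to 6.57 CPM in Cxcr5- T cells, with a log2 difference of 3.03 ± 0.20 (adjusted p = 1.53e-06). Il4 differed by 1.65 ± 0.31 (adjusted p = 0.00199) and was higher in 5 of 6 libraries.

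Transcription factors of the list moved in both directions. Cebpa, a basic leucine zipper factor, had a log2 difference of 3.83 ± 0.29 (adjusted p = 3.75e-06), Pou2af1, a coactivator of octamer-binding factors, 2.43 ± 0.28 (adjusted p = 7e-05), and Tox, a relative of Tox2, 1.27 ± 0.09 (adjusted p = 2.86e-06). Id3, an inhibitor of E proteins, rose by 1.58 ± 0.12 (adjusted p = 2.77e-06). Tcf7 and Lef1 encode related factors that precede BCL6 in these cells and that naive T cells also hold. Tcf7 was higher in gate cells of 6 of 6 libraries (0.54 ± 0.12, adjusted p = 0.00609), and Lef1 was lower in 6 of 6 (-1.25 ± 0.13, adjusted p = 3.51e-05). The other genes lower in gate cells were Trat1, an adaptor of the T cell receptor complex, at -0.85 ± 0.14, and Il21r, the receptor of IL-21, at -0.52 ± 0.09. Ascl2, a factor that induces Cxcr5, did not pass the filter on low counts in this fit. It was at 4.998, 11.3 and 19.1 CPM in spleen gate cells and 0, 6.57 and 6.99 CPM in vascular ones, over 46 and 5 cells with a UMI.

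**Figure D2:**
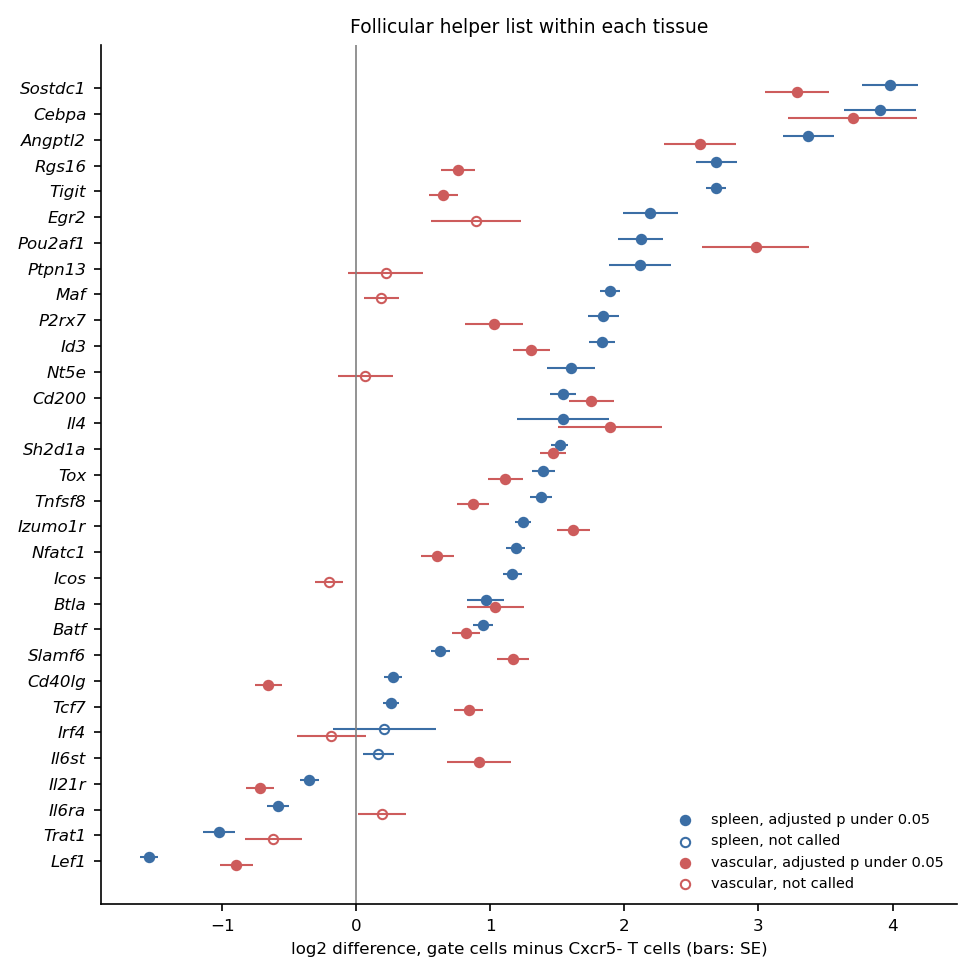
Log2 difference of gate cells minus Cxcr5- T cells for genes of the follicular helper list, in spleen (blue) and in vascular tissue (red), each tested over 3 libraries. Bars are SE, filled points have an edgeR adjusted p under 0.05. Sostdc1, Cebpa and Angptl2 lie far to the right in both tissues, whereas Tigit, Rgs16, Maf and Icos lie further right in spleen.

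Genes that restrain the follicular helper fate were lower in gate cells. Of 16 genes of that list, all tested, 12 were lower and none higher, with a median log2 difference of -0.85. Over all tested genes 12.6% were lower and 12.6% higher. Il7r, the receptor that keeps naive and memory T cells alive, was at 49.3 to 65.8 CPM in spleen gate cells and 107 to 156 CPM in vascular ones. In Cxcr5- T cells it was at 323 to 407 CPM and 381 to 623 CPM. It was lower in gate cells of 6 of 6 libraries, at -2.28 ± 0.13 (adjusted p = 4.02e-07). Selplg, which encodes the P-selectin ligand PSGL-1, was at -1.04 ± 0.09 (adjusted p = 5.54e-06), and Klf2, the factor that drives the egress receptor S1PR1, at -1.07 ± 0.15 (adjusted p = 0.000269). Prdm1, which encodes BLIMP-1, the repressor opposed to BCL6, was at -1.10 ± 0.32 (adjusted p = 0.0263). Its call was lost without spleen library 3 or any 1 of the vascular libraries (adjusted p up to 0.123), as was that of Il2ra, the IL-2 receptor alpha chain (up to 0.150).

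The naive and recirculation list shares genes with those 2 lists, among them Tcf7, Lef1, Ccr7, Klf2, S1pr1, Foxp1 and Il7r. Of its 15 genes, 12 were lower in gate cells and 1, Tcf7, was higher, against 12.6% and 12.6% of all tested genes. Igfbp4, a binding protein of insulin-like growth factors that marks naive CD4+ T cells, was at 19.7 to 81.3 CPM in gate cells and 118 to 900 CPM in Cxcr5- T cells, a difference of -3.18 ± 0.20 (adjusted p = 1.18e-06). Ly6c1, a surface antigen of the Ly6 family, was at -2.77 ± 0.13 (adjusted p = 1.72e-07) and Dapl1, a gene of quiescent T cells, at -2.49 ± 0.23 (adjusted p = 1.17e-05).

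Other genes with the widest differences included Stx11, a syntaxin of granule release (2.05 ± 0.21, adjusted p = 2.75e-05), Cd83, a surface protein of activated lymphocytes (2.03 ± 0.14, adjusted p = 2.29e-06), Marcksl1, an actin-binding substrate of protein kinase C (1.87 ± 0.16, adjusted p = 7.57e-06), and Eea1, a tether of early endosomes (1.68 ± 0.14, adjusted p = 6.55e-06). The inhibitory receptor list had 6 of 9 tested genes higher and none lower, against 12.6% and 12.6% of all tested genes. Among the 6 were Tigit, Lag3, Cd160, Btla and Ctla4, and Tox is also in the list. On the lower side stood Ccr2, a receptor for monocyte chemokines (-2.73 ± 0.14, adjusted p = 3.44e-07), Gzmb, which encodes granzyme B (-2.19 ± 0.33, adjusted p = 0.000478), and Ifngr2, a chain of the interferon gamma receptor (-2.07 ± 0.25, adjusted p = 0.000102). Il17a, the cytokine of Th17 cells, had 24 UMIs in gate cells, all in 1 cell of vascular library 1, against 65.3 to 282 CPM in vascular Cxcr5- T cells.

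Genes of cell division were higher in gate cells, and this count depended on the depth of the cells compared. Of 12 proliferation genes, 11 were higher, against 12.6% of all tested genes, with a median log2 difference of 1.43. Birc5, a subunit of the chromosomal passenger complex, was at 35.1 to 124 CPM in gate cells and 20.8 to 35.3 CPM in Cxcr5- T cells (1.74 ± 0.18, adjusted p = 2.87e-05). Among cells of 4000 to 10000 UMIs in both classes, none of the 12 was higher and 3 were lower, and Mki67, which marks dividing cells, had an adjusted p of 0.334. At 2000 UMIs per cell, the share with a UMI of Top2a, a topoisomerase of dividing cells, was 6.30% ± 0.864 in spleen and 8.08% ± 3.54 in vascular tissue for gate cells, and 2.09% ± 0.239 and 4.80% ± 0.615 for Cxcr5- T cells. The Mki67 shares were 4.52% and 1.55% in gate cells and 0.997% and 1.60% in Cxcr5- T cells, so that the vascular classes did not separate. The same window left 25 of 31 follicular helper genes higher and 3 lower, and 10 of 16 restraining genes lower. Against Cxcr5- cells that held 1 of the 4 genes, 1 of the 12 proliferation genes was higher.

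**Figure D3:**
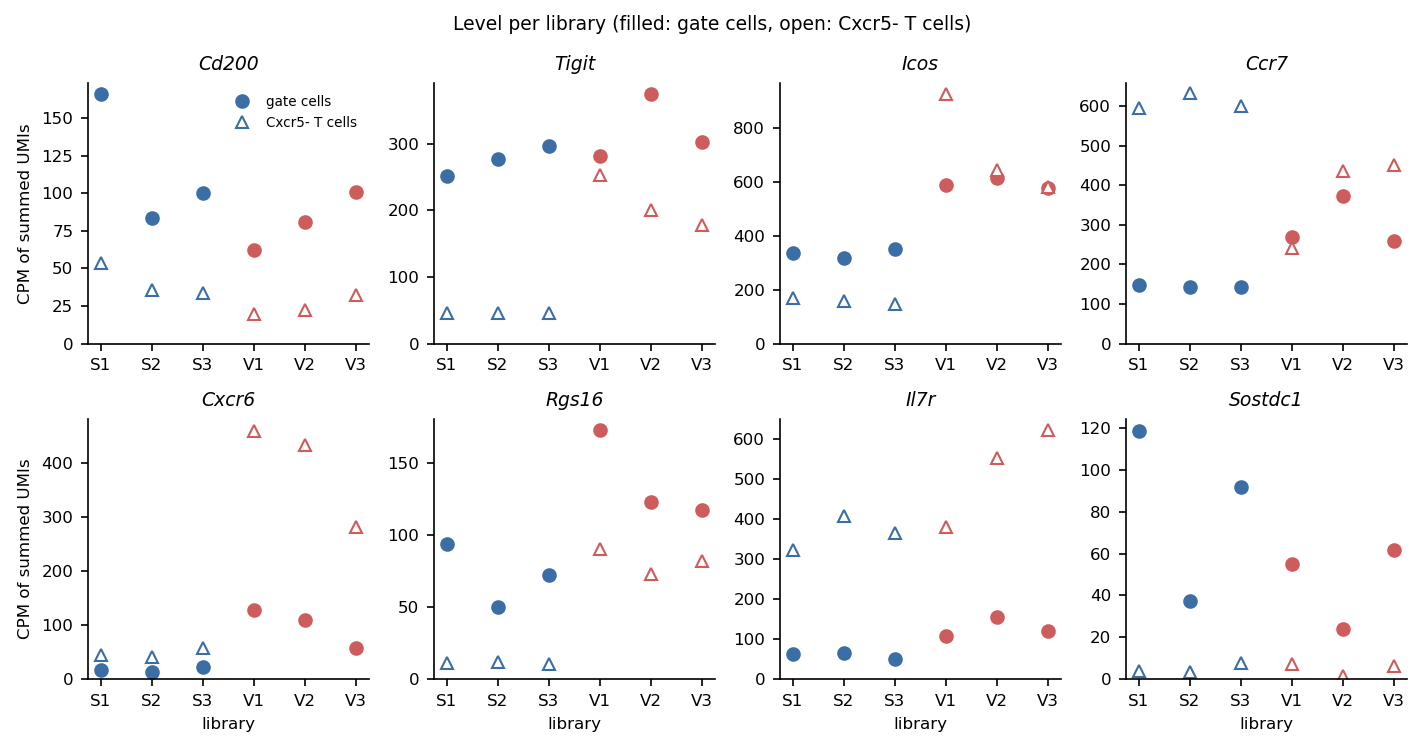
CPM of summed UMIs per library for 8 genes, with gate cells as filled circles and Cxcr5- T cells as open triangles (blue, spleen; red, vascular; axes start at 0). Cd200, Tigit, Rgs16 and Sostdc1 were higher in gate cells of all 6 libraries, and Il7r and Cxcr6 lower. The spleen gate cells lay lowest for Ccr7, and Icos in vascular gate cells lay at 580 to 616 CPM, where vascular Cxcr5- T cells were at 582 to 929 CPM.

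A closer comparison is with the 5985 Cxcr5- cells that held at least 1 of Il21, Tox2, Bcl6 and Pdcd1, of which 4267 were vascular. In it 580 of 8776 genes were called (6.61%), 216 higher in gate cells (2.46%) and 364 lower (4.15%). The follicular helper list had 18 of 31 genes higher and none lower, with a median log2 difference of 0.58. Cebpa (2.49, adjusted p = 0.000106), Sostdc1 (1.63, adjusted p = 0.000333), Angptl2 (1.35, adjusted p = 0.000216) and Id3 (1.25, adjusted p = 1.96e-05) were among them. Maf, Icos and Rgs16 were not called, at 0.22, -0.06 and 0.33. Of 11 type 1 helper genes 8 were lower, among them Ifng (-1.13, adjusted p = 0.017), Tbx21, which encodes T-bet (-1.08, adjusted p = 0.000118), and Nkg7, a cytotoxic granule protein (-1.36, adjusted p = 8.71e-05). Of a list of peripheral helper and tissue homing genes 5 of 7 tested were lower and none higher, with Ccr2 at -2.80 (adjusted p = 4.97e-07) and Cxcr6 at -1.99 (adjusted p = 3.85e-06), while the type 1 chemokine receptor Cxcr3 was at -0.09 (adjusted p = 0.585). Without vascular library 3 the comparison called 372 genes in place of 580.

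Against the 751 Cxcr5+ cells with none of the 4 genes, 386 of 5920 genes were higher (6.52%) and 499 lower (8.43%). The follicular helper list had 16 of 29 tested genes higher and 2 lower, with Sostdc1 at 3.82 (adjusted p = 1.43e-08) and Angptl2 at 2.36 (adjusted p = 7.72e-07). Slamf6, a SLAM receptor, was not called, at -0.08. Of 15 naive and recirculation genes 13 were lower. Without spleen library 3 this comparison called 568 genes, and without spleen library 2 it called 504, in place of 885.

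Between tissues, 221 of 7423 genes were called in gate cells (2.98%), 183 higher in vascular tissue (2.47%) and 38 lower (0.512%). In the far more numerous Cxcr5- T cells 5141 of 12098 were called (42.5%), 2880 higher (23.8%) and 2261 lower (18.7%). The numbers of cells behind these counts differ, so the counts do not compare the size of the change. The gate cell count was 130 without spleen library 2, 89 without spleen library 3, 101 without vascular library 1, 110 without vascular library 2 and 386 without vascular library 3.

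Of the follicular helper list, 2 of 31 tested genes were called between tissues within gate cells, against 2.98% of all tested genes. The 2 were higher in vascular tissue and none was lower. Without TMM scaling 1 was higher and 2 were lower. In cells of 4000 to 10000 UMIs 5 of 29 were higher and none was lower. The median log2 difference was -0.23 against 0.01 over all genes. Icos, the costimulatory receptor that sustains these cells, was at 335, 318 and 350 CPM in spleen and 591, 616 and 580 CPM in vascular gate cells. The libraries did not overlap, and the log2 difference was 0.83 ± 0.11 (adjusted p = 0.00233), called in each of the 6 fits without 1 library. Rgs16, a brake on G protein signals, was at 49.8 to 93.7 CPM and 118 to 173 CPM (0.97 ± 0.23, adjusted p = 0.0472). Its call was lost without spleen library 2 or 3 and without vascular library 1 or 2 (log2 difference 0.74 to 1.02 and adjusted p up to 0.189 in these fits). The marker genes Cd200 (-0.43 ± 0.26, adjusted p = 0.459) and Sostdc1 (-0.64 ± 0.39, adjusted p = 0.46) were not called. At 2000 UMIs per cell, the share of gate cells with a Cd200 UMI was 22.3% ± 7.32 in spleen and 11.6% ± 4.93 in vascular tissue without overlap of libraries, and in 43.7% ± 6.995 and 37.9% ± 8.58 without thinning, where libraries overlapped.

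Ccr7 and Il7r were higher in vascular than in spleen gate cells. Within a tissue, Il7r was lower in gate cells than in Cxcr5- T cells of every library, whereas Ccr7 was lower in spleen (-2.01) and not called in vascular tissue (-0.28, adjusted p = 0.121). Ccr7 was at 147, 142 and 144 CPM in spleen gate cells and 269, 373 and 259 CPM in vascular ones. Every vascular library lay above every spleen library, with a difference of 1.04 ± 0.16 (adjusted p = 0.00432). In Cxcr5- T cells the order was opposite, with 595 to 634 CPM in spleen and 242 to 452 CPM in vascular tissue. At 2000 UMIs the Ccr7+ share of gate cells was 20.1% ± 1.11 in spleen and 26.3% ± 3.68 in vascular tissue, and that of Cxcr5- T cells 54.8% ± 0.839 and 22.6% ± 8.53. Without thinning, 250 of 637 spleen and 129 of 278 vascular gate cells had a Ccr7 UMI. Il7r differed by 1.09 ± 0.19 (adjusted p = 0.00919), and its call was lost without spleen library 3 (0.94, adjusted p = 0.061).

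Genes of tissue residency and of T cells in inflamed tissue were higher in vascular gate cells, at levels below those of vascular Cxcr5- T cells. Of 12 tested residency genes 8 were higher and none lower, with a median of 1.29. Over all tested genes 2.47% were higher and 0.512% lower. Cxcr6, the receptor of CXCL16, was at 16.3, 12.6 and 21.8 CPM in spleen gate cells and 128, 110 and 57.85 CPM in vascular ones, against 280 to 459 CPM in vascular Cxcr5- T cells. The difference in gate cells was 2.46 ± 0.32 (adjusted p = 0.00192). Crem and Fosl2, activity-induced transcription factors, differed by 3.37 ± 0.26 (adjusted p = 6.22e-05) and 3.92 ± 0.34 (adjusted p = 0.000143), and Nr4a2, an orphan nuclear receptor, by 1.97 ± 0.23 (adjusted p = 0.000942). The calls of Rgs1, Rgs2 and Nr4a1 were lost in some fits that left out a library. They were lost without spleen library 2 for Rgs1 and Rgs2, without spleen library 3 and vascular library 2 for all 3, without vascular library 1 for Rgs1 and Rgs2, and without spleen library 1 for Rgs1. In the fits that lost a call the log2 differences of Rgs1, Rgs2 and Nr4a1 were 0.73 to 1.27.

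Heat shock genes were higher in vascular gate cells nearly throughout the list. Of 11 tested, 10 were higher in vascular gate cells and none lower, with a median of 1.12. Over all tested genes 2.47% were higher and 0.512% lower. Hspa1a, an inducible HSP70 chaperone, was at 35.0, 8.38 and 4.20 CPM in spleen and 1292, 844 and 1284 CPM in vascular gate cells (6.62 ± 0.49, adjusted p = 6.22e-05). It was found in 18 of 637 and in 211 of 278 cells. Hspa1b, its near-identical neighbour, whose reads may be split with it, was at 5.45 to 7.50 CPM and 309 to 352 CPM (5.78 ± 0.18, adjusted p = 7.48e-09). In Cxcr5- T cells 11 of 12 heat shock genes were higher in vascular tissue, against 23.8% of all genes tested there. In gate cells the call of Hspa8 was lost without vascular library 1 (adjusted p = 0.052) and those of Hsp90ab1 (0.0596) and Hspd1 (0.0506) without spleen library 3. Only vascular tissue was digested at 37 °C, and the part of digestion was not tested.

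Among the other genes with the widest tissue difference were several carried by few gate cells. Ccl4, a chemokine for T cells and monocytes, was at 0, 5.86 and 4.96 CPM in spleen and 316, 46.0 and 61.0 CPM in vascular tissue (4.91 ± 0.76, adjusted p = 0.00516). It was found in 20 of 278 vascular gate cells, 1 of which held 103 of 329 UMIs, and the difference was 2.67 (adjusted p = 0.0251) without cells that carried RNA of other lineages. Penk, the opioid precursor proenkephalin, was at 3.05 to 18.7 CPM and 75.0 to 248 CPM over 19 vascular cells (4.19 ± 0.59, adjusted p = 0.00309). Dusp14, a phosphatase that limits T cell receptor signals, was at 5.35 to 8.75 CPM and 21.9 to 130 CPM over 54 vascular cells (3.66 ± 0.48, adjusted p = 0.00198). Siglech rose by 3.51 ± 0.81 (adjusted p = 0.0413) over 9 vascular and 3 spleen cells, with up to 32 UMIs in a cell. It is a marker of plasmacytoid dendritic cells, and its call was lost without spleen library 1 or 3, without vascular library 1 or 2 (log2 difference 2.74 to 3.42) and in DESeq2. Without spleen library 2, which held all spleen UMIs of Siglech, no fold is given because the spleen was at 0.

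The genes named as lower in vascular gate cells had log2 differences near -1. Fam101b, an actin regulator, was at 165, 186 and 181 CPM in spleen and 62.5, 81.1 and 97.9 CPM in vascular gate cells (-1.12 ± 0.17, adjusted p = 0.00467). Cdc42se1, an effector of CDC42 (-1.10 ± 0.16, adjusted p = 0.00309), Rasgrp2, an activator of RAP1 (-1.06 ± 0.17, adjusted p = 0.00559), and Ikzf3, the factor Aiolos (-0.99 ± 0.16, adjusted p = 0.00642), kept their calls in all 6 fits without 1 library. Trim8, S1pr4, Cdc25b and Dennd2d lost theirs in 3 to 5 of these fits. The losses came without spleen library 3 and vascular libraries 1 and 2 for all 4, without spleen library 2 for S1pr4 and Dennd2d, and without spleen library 1 for Dennd2d. In the fits that lost a call the log2 differences of Trim8, S1pr4, Cdc25b and Dennd2d were -1.12 to -0.69, with adjusted p up to 0.176.

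**Figure D4:**
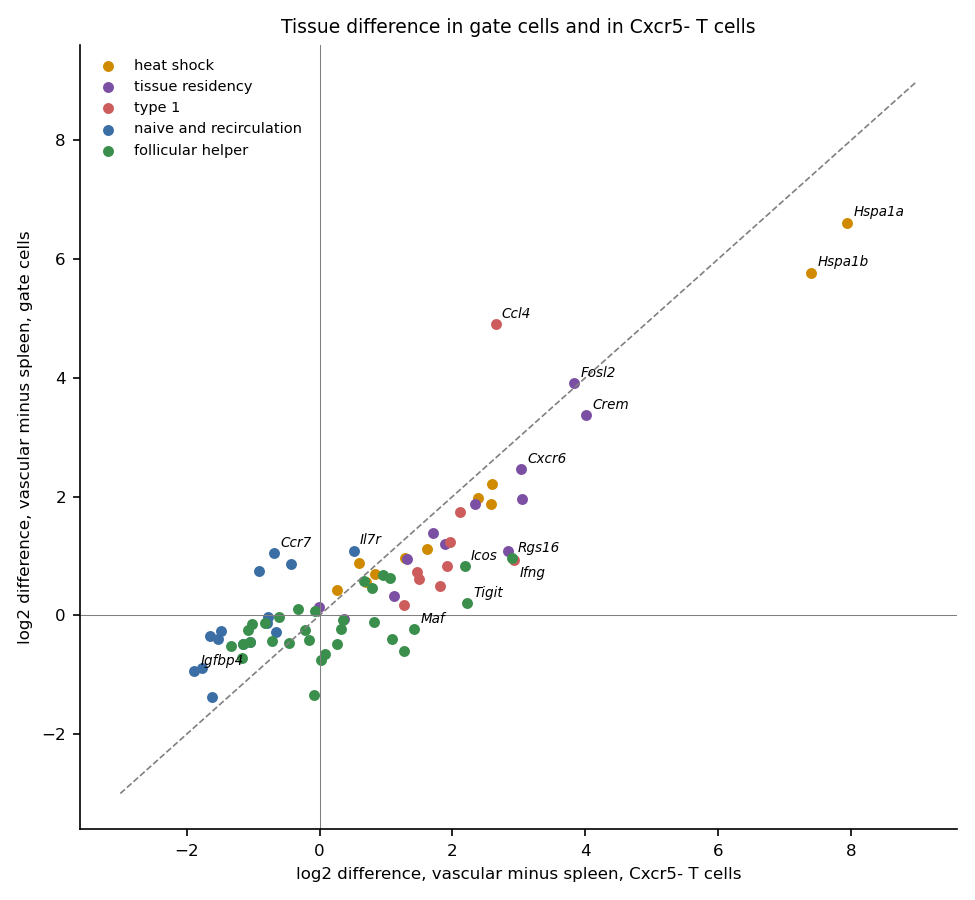
Log2 difference between vascular tissue and spleen in gate cells (vertical) against that in Cxcr5- T cells (horizontal) for tested genes of 5 lists. On the dashed line both are equal. Most heat shock and residency genes are positive on both axes. Icos, Tigit, Rgs16, Maf and Ifng lie well below the line, and Ccr7 lies above it with opposite signs.

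Whether a gene changed between tissues by a different amount in gate cells was tested as an interaction of class and tissue. Of 10876 genes 438 were called (4.03%), of which 168 had a more positive difference in gate cells (1.54%) and 270 a more negative one (2.48%). In the follicular helper list 8 of 32 genes were more negative and 3 more positive. Tigit, an inhibitory receptor, was at 251, 276 and 296 CPM in spleen gate cells and 281, 375 and 303 CPM in vascular ones. In Cxcr5- T cells it was at 45.3 to 45.8 CPM in spleen and 178 to 253 CPM in vascular tissue. The tissue difference was 0.21 in gate cells and 2.22 in Cxcr5- T cells, and the interaction was -2.0 ± 0.16 (adjusted p = 6.97e-07). Icos (-1.33 ± 0.15, adjusted p = 3.06e-05), Rgs16 (-1.90 ± 0.20, adjusted p = 1.8e-05), Maf, a factor of IL-21 and IL-4 production (-1.65 ± 0.18, adjusted p = 3.28e-05), and Cd40lg, which encodes CD40 ligand (-0.90 ± 0.12, adjusted p = 0.000152), also had more negative differences in gate cells.

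The comparison with Cxcr5- T cells was also made within each tissue, over 637 gate cells in spleen and 278 in vascular tissue, so the counts do not compare the size of the differences. In spleen 2869 of 10155 genes were called against Cxcr5- T cells (28.3%), 1559 higher in gate cells (15.4%) and 1310 lower (12.9%), with 26 of 32 follicular helper genes higher. In vascular tissue 1484 of 10980 were called (13.5%), 628 higher (5.72%) and 856 lower (7.8%), with 20 of 31 follicular helper genes higher. Maf differed by 1.90 in spleen (adjusted p = 3.84e-09) and 0.19 in vascular tissue (adjusted p = 0.425). Cd40lg was higher in gate cells in spleen (0.27, adjusted p = 0.00806) and lower in vascular tissue (-0.65, adjusted p = 6.95e-06). For Cd200, Sh2d1a, Tox, Il4, Pou2af1 and Izumo1r, a folate receptor family member on follicular helper cells, the interaction was not called. Without vascular library 3 the vascular comparison called 641 genes in place of 1484.

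Among the lists, naive and recirculation genes most often had a more positive difference in gate cells, with 8 of 15 called and none in the other direction. Over all tested genes 1.54% were more positive and 2.48% more negative. Ccr7 had the interaction of 1.75 ± 0.17 (adjusted p = 8.41e-06) and Klf2 one of 0.79 ± 0.15 (adjusted p = 0.0052). The call of Actn1, an actin crosslinker, was lost without vascular library 1 or 2 (adjusted p up to 0.0875). The calls of Tcf7 and Lef1 were lost in 3 of the 6 fits each, without vascular libraries 1 and 2 for both, without spleen library 2 for Tcf7 and without spleen library 3 for Lef1 (adjusted p up to 0.0863 and 0.0623). Slamf6 (0.56 ± 0.14, adjusted p = 0.0311) and Nfatc1 (-0.54 ± 0.14, adjusted p = 0.0367) each lost theirs in 4 fits, both without spleen library 3 and vascular libraries 1 and 2, Slamf6 without spleen library 2 (up to 0.134) and Nfatc1 without spleen library 1 (up to 0.226).

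Of 9 type 1 helper genes tested between tissues in gate cells, 4 were higher in vascular tissue and none lower. Over all tested genes 2.47% were higher and 0.512% lower. Of these 4 (Il18r1, Ccl4, Hopx and Stat4), Ccl4 alone kept its call in every fit without 1 library. The others lost theirs when spleen 2, spleen 3, vascular 1 or vascular 2 was dropped, and Stat4 also without spleen 1 (adjusted p up to 0.128). By interaction, 7 of 11 had a more negative difference in gate cells than in Cxcr5- T cells and none a more positive one. Over all tested genes these shares were 2.48% and 1.54%. In cells of 4000 to 10000 UMIs the interaction count was 3 of 11, and 6 of 9 were higher between tissues in gate cells. Ifng was at 73.7, 45.2 and 46.6 CPM in spleen gate cells and 195, 87.7 and 36.2 CPM in vascular ones, where library 3 lay below every spleen library. In vascular library 1, 1 of 67 gate cells held 71 of the 131 Ifng UMIs. In Cxcr5- T cells Ifng was at 34.0 to 41.2 CPM and 193 to 356 CPM without overlap. The interaction was -2.07 ± 0.28 (adjusted p = 0.000256). At 2000 UMIs the Ifng+ share was 7.52% ± 0.548 and 8.36% ± 3.23 in gate cells and 4.36% ± 0.146 and 21.7% ± 6.84 in Cxcr5- T cells. The interaction call of Tbx21 was lost in 4 fits, leaving out spleen libraries 2 and 3 and vascular libraries 1 and 2 in turn (adjusted p up to 0.159). That of Ccl5 was lost without vascular library 1 (0.0971) and that of Hopx without spleen library 2 (0.0811).

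Helper ligands and costimulatory genes were taken as another list of 15 genes, which shares Icos, Cd40lg, Il4, Tnfsf8 and Slamf6 with the follicular helper list. Against Cxcr5- T cells 5 of 14 tested were higher and 1 lower over both tissues, against 12.6% and 12.6% of all tested genes. In spleen 12 of 14 were higher and 1 lower, against 15.4% and 12.9% of all tested genes. In vascular tissue 3 were higher and 4 lower, against 5.72% and 7.8%. The call of Tnfsf11 over both tissues was lost without any 1 of the spleen libraries (adjusted p up to 0.132). Within gate cells 1 of 12, Icos, differed between tissues, against 2.98% of all tested genes. By interaction 6 of 14 were more negative and 1 more positive, against 2.48% and 1.54% of all tested genes. Tnfsf11, which encodes RANKL, was at 103 to 118 CPM in spleen gate cells and 141 to 225 CPM in vascular ones, against 21.7 to 30.4 and 142 to 226 CPM in Cxcr5- T cells, with an interaction of -2.20 ± 0.19 (adjusted p = 1.44e-06). Cxcl13, the ligand of CXCR5, had a UMI in 4 of 637 spleen gate cells and in 2 of 278 vascular ones.

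Markers of other cell types were present in some gate cells. Of 915 gate cells, 85 (9.29%) carried at least 2 UMIs of B cell genes, of macrophage genes or of Siglech, or 5 of Jchain, against 5.20% of Cxcr5- T cells. Gate cells were deeper, and these shares were not taken at equal depth. The part of this RNA in single results was measured by leaving those cells out. Then 1263 genes were higher and 1311 lower against Cxcr5- T cells, 145 higher and 19 lower between tissues, and of the follicular helper list 23 were higher and 3 lower. The summed level of 11 B cell markers, in counts per 1000000 without TMM scaling, was 58.2 to 1413 CPM in spleen and 708 to 2218 CPM in vascular gate cells, with 0 to 5 of the 11 at 0. The plasma cell list of 5 genes was at 38.4 to 102 CPM in spleen gate cells and at 2664, 6749 and 86.7 CPM in vascular libraries 1 to 3, where 1 cell each in libraries 1 and 2 held 1455 and 2807 UMIs of Jchain, the joining chain of antibodies. The plasmacytoid list of 8 genes was at 189 to 376 CPM and 456 to 874 CPM, with Siglech at 0 in spleen libraries 1 and 3.

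Markers that the rule did not use, and a list of CD4+ T cell markers, bear on the T cell label. Cd4 was detected in 79.2% ± 2.06 of gate cells in spleen and in 80.6% ± 5.05 in vascular tissue, against 56.5% ± 2.54 and 63.9% ± 1.01 of Cxcr5- T cells. Gate cells were deeper in every library and no Cd4 share was taken at equal depth, so the part of depth in this gap was not tested. The list of 6 CD4+ T cell markers, summed without TMM scaling, was at 4793 to 5790 CPM in spleen gate cells and 4072 to 4509 CPM in vascular ones. In Cxcr5- T cells it was at 3749 to 4276 CPM and 4105 to 4493 CPM, so that the vascular classes overlapped. Cd8a was at 0 in every spleen library of gate cells and was seen in each vascular one, where the 2 genes of the CD8 list summed to 19.0 to 73.4 CPM. Ikzf2, a factor of regulatory T cells also known as Helios, was higher in gate cells by 1.62 ± 0.13 (adjusted p = 4.66e-06) although the rule removed cells with Foxp3. Of the list of 10 regulatory T cell genes it belongs to, 4 were higher (Ikzf2, Ctla4, Nrp1 and Il1r2) and 3 lower (Il2ra, Tnfrsf18 and Capg). The median log2 difference was -0.11, and over all tested genes 12.6% were higher and 12.6% lower. The calls of Ikzf2, Ctla4 and Il1r2 held in every fit without 1 library. That of Tnfrsf18 was lost in all 6 (adjusted p up to 0.123), that of Nrp1 without any 1 of the spleen libraries or vascular library 2 (up to 0.0802), and that of Capg without spleen library 2 (0.0549). Cxcr5+ cells with Foxp3 numbered 257, at 10.6% ± 1.76 of Foxp3+ T cells in spleen and 3.12% ± 0.748 in vascular tissue. The part of regulatory cells in which Foxp3 was missed was not tested.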

How the data were processed

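CD4+ T cells of spleen and vascular tissue were profiled in 3 libraries each. The tools FastQC 0.11.8, Cell Ranger 2.2.0, STAR 2.5.1b and Seurat and the build mm10 are named in the submitters' processing notes. The deposited matrices hold whole-number UMI counts per gene and barcode, not normalized, per the file headers.

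Cells with under 300 genes or over 10% of UMIs from mitochondrial genes were left out. The members, gene lists and comparisons were chosen with earlier results of these data known. Counts of gate cells and comparison cells were summed per library (at least 10 cells) and compared by edgeR 4.0.16 with quasi-likelihood fits (R 4.3.3, TMM, filterByExpr, Benjamini-Hochberg at 0.05), with library as a block where classes were compared. The 7 gate genes were left out of these tests of RNA levels. Log2 differences are vascular minus spleen or gate cells minus the other class, with SE from the F statistic, and levels are CPM with TMM-scaled sizes, as mean ± SD over libraries. In simulated counts for the tissue comparison (7423 genes), 90% of 4-fold and 62% of 2-fold changes were recovered. For gate cells against Cxcr5- T cells (10217 genes) it was 94% and 85%, and for the interaction (10553 genes) 74% and 22%. The simulation used a single fixed dispersion and the same share of each unchanged gene in every library. Only genes with an expected mean of at least 10 UMIs were changed. The dispersion was not estimated from these libraries, so the percentages describe the simulated setting and not the power of these data.

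Shares were compared by exact two-sided permutation tests (scipy 1.17.1) and again after thinning each cell to 2000 UMIs, which left out 1 gate cell and, of Cxcr5- T cells, 43 in spleen library 1 and 16 in vascular library 2. Doublets were scored against 2 simulated doublets per cell and kept in the main results. Named genes were the 8 with the largest rise and the 8 with the largest fall among called genes with at least 50 CPM in the higher group and no overlap of libraries (or one sign in every library), plus list members. Alternatives were DESeq2 1.42.0, no TMM, no filter on low counts, stricter gates, a depth window, removal of doublets or of cells with RNA of B cells, and leaving out each library. Removal of cells with macrophage RNA or RNA of other lineages was added after the data were seen. Ighm was not among the B cell genes used.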

Additional observations from a re-analysis of the deposited data

Results flagged for a closer look

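Counted here are only the genes named for the largest rises and falls, between tissues in gate cells or against Cxcr5- T cells. Of these, 10 had a called interaction, a tissue difference in gate cells unlike that in Cxcr5- T cells (edgeR, adjusted p under 0.05). Over all tested genes 4.03% were called. The named genes were picked for large differences in these same data, so the shares are not compared. List members not so named, such as Icos and Ccr7, had called interactions given above and are left out of this count. The values are the log2 difference between tissues in gate cells minus that in Cxcr5- T cells. It was -1.59 for Hspa1b, which was higher in vascular tissue in both classes. It was 0.61 for Fam101b and -1.67 for Ikzf3. Of the genes higher in gate cells than in Cxcr5- T cells, Stx11 had -1.11, Marcksl1 -0.82, Rgs16 -1.90, Eea1 -0.67 and Tigit -2.0. Of those lower in gate cells, Gzmb had -2.01 and Ifngr2 1.43. The calls of Fam101b, Marcksl1, Eea1, Gzmb and Ifngr2 were lost in 3 to 5 of 6 fits that left out 1 library (adjusted p up to 0.172). These were the fits without spleen libraries 2 and 3 and vascular libraries 1 and 2 for Fam101b, without spleen library 3 and vascular libraries 1 and 2 for Marcksl1 and Ifngr2, without each library but vascular 3 for Eea1, and without spleen library 2 and vascular libraries 2 and 3 for Gzmb.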

How the results depend on the processing

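The lower share of gate cells in vascular tissue kept its direction under each alternative, with a difference of -2.40 to -1.42 percentage points when a library was left out, and could not pass 0.05 with 3 libraries a side. Counts of called genes depended on the cells used. In cells of 4000 to 10000 UMIs, 340 genes were called between tissues in place of 221, 1687 against Cxcr5- T cells in place of 2572, 726 in the separate vascular comparison in place of 1484, and 421 against Cxcr5+ cells with none of the 4 genes in place of 885. With at least 2 of the 4 genes the tissue count was 108, with at least 2 Cxcr5 UMIs it was 47 and the interaction count 201 in place of 438, and with no filter on low counts the tissue count was 601. Without 1 library the counts ran from 89 to 386 between tissues, from 286 to 460 for the interaction, from 641 to 1544 in the vascular comparison, from 372 to 568 against Cxcr5- cells with 1 of the 4 genes, and from 504 to 907 against Cxcr5+ cells with none.

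Without TMM the split of calls moved. It was 152 higher and 77 lower between tissues, 2706 and 590 against Cxcr5- T cells, and 104 and 476 for the interaction, with shifts of the median gene of -0.11, 0.21 and -0.15. In the depth window 78 of the 2572 genes called against Cxcr5- T cells reversed in sign, as did 65 of the calls of the separate spleen comparison, 88 of the vascular one and 27 of those against Cxcr5+ cells with none of the 4 genes. The list members among the 78 were Stmn1 (-0.22), Tuba1b (-0.32), Tubb5 (-0.38) and Hspd1 (-0.0232). The cause was not tested. The labels do not say whether the replicate numbers pair the libraries of the tissues. Deviations of gate cell levels from the tissue mean had correlations of -0.03, -0.04 and 0.00 between libraries of the same number. With 3 libraries a side and few gate cells in some, these values cannot decide whether libraries were paired. With the number as a replicate block 227 genes were called between tissues, 191 of them shared with the 221. The 60 to 76 gate cells in each of 3 libraries limit the detection of low genes.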

Other observations

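Type I interferon genes did not set gate cells apart as a group. Of 14 tested, 2 (Isg15, a ubiquitin-like modifier, and Ifi27l2a) were higher and 3 (Irf7 and Ifi203 among them) lower than in Cxcr5- T cells. Over all tested genes 12.6% were higher and 12.6% lower. Between tissues 1 of 14, Bst2, which plasmacytoid dendritic cells also express, was higher in vascular gate cells, against 2.47% of all tested genes. The call of Isg15 against Cxcr5- T cells was lost in fits that dropped spleen 2, spleen 3, vascular 2 or vascular 3 (adjusted p up to 0.107). Of the type 2 list, Ccr8, a chemokine receptor of tissue T cells, was at 2.67 to 7.12 CPM in spleen gate cells and 43.8 to 62.5 CPM in vascular ones (3.30 ± 0.33, adjusted p = 0.00042), while Il5 and Il13 had 0 UMIs in gate cells of all 6 libraries. Il1r2, a decoy receptor of IL-1 that follicular regulatory cells also carry, was at 6.25 to 13.8 CPM and 50.6 to 80.1 CPM (2.66 ± 0.30, adjusted p = 0.000758), and was higher than in Cxcr5- T cells of every library.

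Of 5 genes of the Th17 list tested between tissues in gate cells 1, Rora, was higher in vascular tissue, against 2.47% of all tested genes. Rora was at 34.7 to 67.5 CPM in spleen and 106 to 220 CPM in vascular gate cells (1.87 ± 0.30, edgeR adjusted p = 0.00606). It was also higher in vascular than in spleen Cxcr5- T cells. Its difference was more negative in gate cells by the interaction, at -1.39 to -1.09 in the 6 fits without 1 library. Of 14 immediate early genes, 6 were lower in gate cells than in Cxcr5- T cells over both tissues and none higher, against 12.6% lower and 12.6% higher of all tested genes. In spleen 5 were higher (Fos, Fosb, Egr1, Zfp36 and Dusp1) and 5 lower, against 15.4% and 12.9% of all tested genes. In vascular tissue 13 were lower, against 7.8% of all tested genes. By interaction 8 of 14 were more negative and none more positive, against 2.48% and 1.54% of all tested genes.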
